A study of Mus musculus with 24 samples.

Results

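The loss of Oct4 and the loss of Sox2 were set against each other in mouse L-EPSCs, expanded potential stem cells kept in an inhibitor medium, by asking for each gene whether its response to doxycycline (Dox) differed between an Oct4-cKO and a Sox2-cKO line. The 8 libraries used, of 24 in the series, were every untreated and Dox-treated L-EPSC library of these lines, 2 per group. The Oct4-cKO line (ZHBTc4) and the Sox2-cKO line (2TS22C) are tet-off lines: the endogenous gene is deleted, a transgene of the same factor keeps the cells, and Dox switches the transgene off. The groups were thus Oct4-cKO L-EPSCs without Dox, Oct4-cKO L-EPSCs with Dox, Sox2-cKO L-EPSCs without Dox and Sox2-cKO L-EPSCs with Dox, and the untreated cells of each line already lacked the endogenous copy of its factor. The study's methods give several passages without feeder cells for its EPSCs before sequencing, but do not name these lines there. Each genotype is represented by 1 line, so the factor lost and any other feature of the line cannot be told apart, and the sources used here do not say how long the sequenced cells had been in Dox or whether the libraries of a group came from separate cultures. The p-values measure only the spread between libraries of a group, estimated over the 18 tet-off libraries fitted together, which include groups outside the contrast.

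Oct4 (gene Pou5f1), a POU-domain factor, and Sox2, an HMG-box factor, bind side by side on composite sites in the enhancers of pluripotency genes, and each sustains the expression of the other. Loss of either ends self-renewal in mouse pluripotent cells. Oct4 holds back the trophoblast programme, the first extraembryonic lineage of the embryo, and Sox2 is besides a regulator of the neural lineage.

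The quantity followed throughout is the difference of responses: the log2 change with Dox in the Oct4-cKO line minus that in the Sox2-cKO line, on log2(normalized count + 1), given with its SE. A negative difference means that a gene fell further, or rose less, when Oct4 was lost, and a positive difference the opposite. A gene was called where limma gave a Benjamini-Hochberg adjusted p under 0.05 and the difference lay beyond 1 in either direction. In bulk RNA, fewer cells of a type and less RNA per cell cannot be told apart. The 8 libraries held 10807631 to 14798984 reads on genes, with the lower depth in the Dox-treated cells of the Oct4-cKO line and in the untreated cells of the Sox2-cKO line.

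The targeted genes went with the labels in every library, and transcripts of the partner factor fell in each line as well. Pou5f1 (chromosome 17, 35642982 to 35647721, NCBIM37) had counts of 6420.1 and 6316 without Dox and 162 and 184 with Dox in the Oct4-cKO line, and 8221 and 8489.9 without and 3291 and 3073 with Dox in the Sox2-cKO line. Oct4 transcripts therefore fell in all treated libraries, and those of the Oct4-cKO line lay far below those of the Sox2-cKO line, with a difference of -3.80 ± 0.07 (SE, adjusted p = 4e-15). Sox2 (chromosome 3, 34548927 to 34551383) had counts of 5483 and 5479.5 without Dox and 260.3 and 229.8 with Dox in the Oct4-cKO line, and 4966 and 4701 without and 47.0 and 53.1 with Dox in the Sox2-cKO line. Its fall was the deeper in the Sox2-cKO line, with a difference of 2.09 ± 0.08 (SE, adjusted p = 1.5e-11), while Oct4 transcripts were still measured there. Nanog (chromosome 6, 122657507 to 122664651), the third factor of the core, fell alike by its values: its counts were 7424 and 7636 without Dox and 691 and 726 with Dox in the Oct4-cKO line, and 7883 and 7557 without and 654 and 733 with Dox in the Sox2-cKO line, and its difference of 0.07 ± 0.06 was not called (adjusted p = 0.5). Gene counts do not separate the transgene from the endogenous locus. The untreated cells of both lines carried these markers of pluripotent cells, and Esrrb and Tdgf1 below, at high counts.

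Of 24007 genes tested, 1635 (6.81%) responded differently, 510 (2.12%) with a positive and 1125 (4.69%) with a negative difference. Among the 13886 genes averaging 10 or more normalized counts over the 8 libraries, 1294 (9.32%) were called, 358 (2.58%) positive and 936 (6.74%) negative. Of these 1294, edgeR on the recovered reads called 1247 in the same direction and DESeq2 1259. Among all 1635 the shared calls were 1328 and 1312, and 397 of the 1635 had a group in which each library held at most 3 reads. The genes at the low end were thus the less certain ones, and those described here were taken mainly from above it.

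Most of the 1635 genes were called for Dox in a single line. In the Oct4-cKO line alone 712 of the 1635 were also called for Dox (193 positive, 519 negative), and in the Sox2-cKO line alone 355 (126 positive, 229 negative). A further 242 had been called the same way in both lines but by different amounts, 290 in neither line on its own, and 36 in opposite directions. The difference rested mainly on the treated cells: in 995 of the 1635 the treated cells of the lines differed and the untreated did not, in 189 the untreated differed and the treated did not, in 48 both did and in 403 neither did. The untreated difference enters the difference of responses with the opposite sign, so that a gene lower in untreated Oct4-cKO cells leans to a positive value by the calculation itself. Of the 510 genes with a positive difference, 112 were lower in untreated Oct4-cKO cells and 4 higher, and of the 1125 with a negative one 21 were lower and 100 higher. Across the 13886 genes with a mean of at least 10, the responses of the lines were nonetheless alike, with a Pearson's r of 0.777 and a Spearman's rho of 0.688 across genes, and they had the same sign in 73.9%. These are descriptions across genes, which are not replicates. In the Nanog-cKO L-EPSCs of the same table, 229 of the 1635 genes (14.0%) were called for Dox, against 5.39% of all genes tested.

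**Figure D1:**
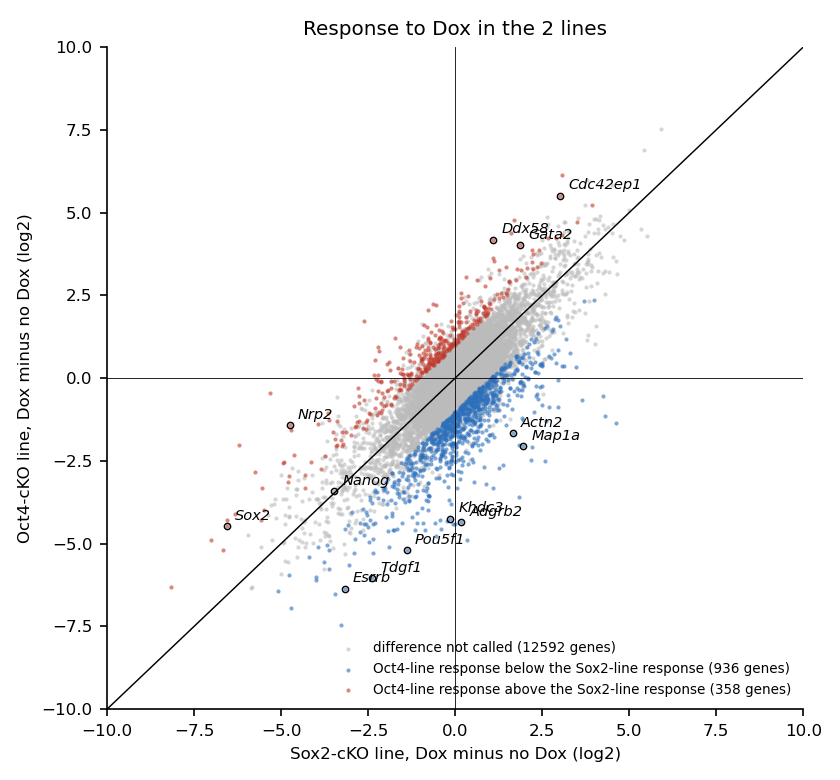
The log2 response to Dox in the Sox2-cKO line (x axis) is plotted against that in the Oct4-cKO line (y axis) for the 13886 genes averaging 10 or more normalized counts. Each point is a gene, the diagonal marks equal responses, blue marks the 936 genes called below it and red the 358 called above it, and Nanog lies close to the diagonal while Pou5f1 lies below it and Sox2 above it.

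The length and GC content of the transcripts moved with the difference, and this touches every count. Across 13103 genes with a protein-coding transcript in the annotation, Spearman's rho between transcript length and the difference was -0.31. In the shortest of 5 equal groups of genes (78 to 1710 bases) the median difference was 0.24 and 3.74% were called negative, and in the longest (4855 to 106824 bases) the median was -0.33 and 13.3% were called negative. For GC content the rho was weaker, at -0.08. Negative calls were 2.90% in the lowest of 5 equal groups by GC content and 11.7% in the highest. Within single libraries the rho between length and a gene's level relative to the mean of the 8 libraries was 0.261 and 0.266 in the Dox-treated Sox2-cKO cells, -0.185 and -0.177 in the Dox-treated Oct4-cKO cells, and between -0.0444 and 0.0213 in the 4 untreated libraries. A fit made after seeing this, with each library's trend with length and GC content removed, called 1299 of 18344 genes with a transcript, 509 positive and 790 negative. Of the 439 positive and 1024 negative calls of the main test in those genes, 366 and 698 were kept, and no call changed direction. Reads on mitochondrial genes were 1.45% and 1.57% of all without and 2.18% and 2.19% with Dox in the Oct4-cKO line, and 1.92% and 2.10% without and 2.36% and 2.48% with Dox in the Sox2-cKO line. The part of RNA quality or of library preparation in the trend was not tested.

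**Figure D2:**
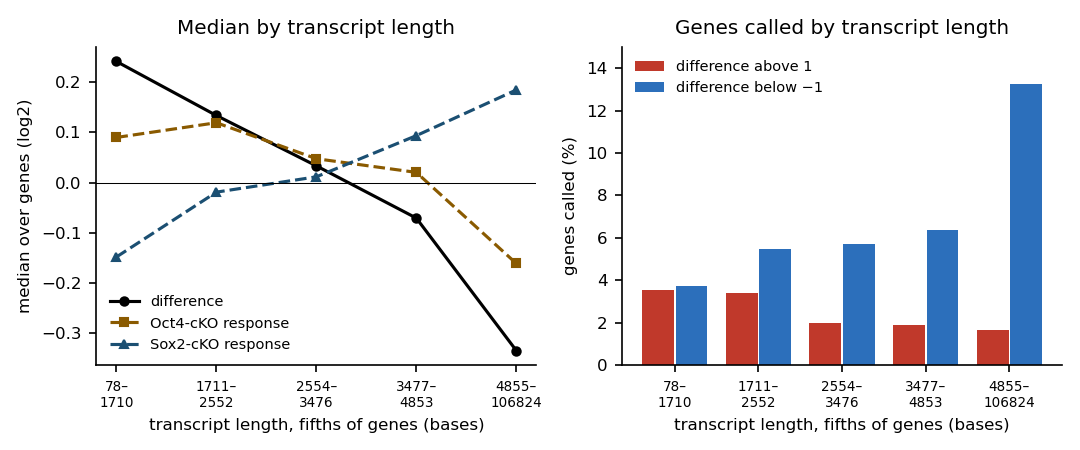
Genes averaging 10 or more normalized counts were split into 5 equal groups by the length of their longest protein-coding transcript (x axis, bases). The left panel gives the median difference of responses and the median response of each line (log2), and the right panel the percentage of genes called in each direction, with negative calls rising from 3.74% to 13.3% between the shortest and the longest group.

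The genes with the most negative differences included pluripotency factors that fell in both lines, and further without Oct4, where they nearly vanished. Tdgf1 (chromosome 9, 110842114 to 110848662), which encodes Cripto, the co-receptor of Nodal, had counts of 8209 and 8041 without Dox and 122 and 122 with Dox in the Oct4-cKO line, and 7611 and 7784 without and 1457 and 1496 with Dox in the Sox2-cKO line. Its treated Oct4-cKO libraries were below all others, and the difference was -3.66 ± 0.04 (SE, adjusted p = 8.4e-18). Esrrb (chromosome 12, 87702067 to 87862578), an orphan nuclear receptor of the naive network, had counts of 3660.4 and 3642 before and 47.2 and 40.0 after Dox when Oct4 was lost, against 5570.0 and 5493 before and 609.6 and 614 after when Sox2 was lost. Esrrb fell in both lines, and the fall was the deeper in the Oct4-cKO line, with a difference of -3.19 ± 0.07 (SE, adjusted p = 3.6e-14). Fam81a had a difference of -3.18 ± 0.09 (SE, adjusted p = 3.5e-13), with counts that fell from 1058 and 1057 to 31.1 and 28.9 after Oct4 loss and from 1122 and 1188 to 298 and 314 after Sox2 loss.

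Others differed in other ways. Khdc3 and Adgrb2 fell in the Oct4-cKO line while the values of the Sox2-cKO line stayed near its untreated level. Khdc3 (chromosome 9, 72949643 to 72952250), a component of the maternal complex under the cortex of the oocyte, had counts of 1183 and 1170.5 without Dox and 76.0 and 48.8 with Dox in the Oct4-cKO line, and 737 and 755 without and 697 and 649 with Dox in the Sox2-cKO line. The treated Oct4-cKO libraries lay below all others, and the difference was -4.10 ± 0.20 (SE, adjusted p = 3.9e-10). Adgrb2, an adhesion G protein-coupled receptor, went from 333 and 347 to 18.4 and 13.3 after Oct4 loss and from 344 and 338 to 378 and 388 after Sox2 loss, a difference of -4.52 ± 0.16 (SE, adjusted p = 8.7e-12). A2m, the protease inhibitor alpha-2-macroglobulin, fell in both lines, from 2414 and 2253 to 6.91 and 21.1 after Oct4 loss and from 1230.4 and 1216 to 124 and 128 after Sox2 loss, a difference of -4.19 ± 0.39 (SE, adjusted p = 4.9e-07). Bsn, a presynaptic scaffold protein, rose in the Sox2-cKO line, and the lines already differed without Dox: its counts were 12.4 and 8.98 without Dox and 3.45 and 8.88 with Dox in the Oct4-cKO line, and 127 and 123 without and 652 and 756 with Dox in the Sox2-cKO line. The difference of -3.28 ± 0.85 (SE, adjusted p = 0.0089) for this long transcript was -1.55 and no longer called with the length and GC trend removed.

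Genes called for Dox in opposite directions were few. There were 5 with a mean of at least 100, which all fell after Oct4 loss and rose after Sox2 loss. They were Map1a, Actn2, Hrc, Calr4 and Npnt. S100a13 and Cdh3, below, moved the other way by their values, but were not called for Dox in both lines. At a threshold of 0.6 the opposite calls, at any mean, were 108 in place of 36. Map1a (chromosome 2, 121115336 to 121136568), a microtubule-associated protein of neurons, had counts of 475 and 458 without Dox and 102 and 121 with Dox in the Oct4-cKO line, and 334 and 309 without and 1208 and 1296 with Dox in the Sox2-cKO line. The treated groups of Map1a lay on either side of the untreated ones, and the difference was -4.01 ± 0.14 (SE, adjusted p = 6.1e-12), or -2.84 with the length and GC trend removed. Actn2 (chromosome 13, 12361693 to 12433027), the alpha-actinin of the muscle Z disc, had counts of 538 and 508 before and 159 and 168 after Dox when Oct4 was lost, against 501 and 554 before and 1666 and 1635 after when Sox2 was lost. As in Map1a no treated library overlapped the untreated ones of its line, and the difference was -3.32 ± 0.17 (SE, adjusted p = 3.9e-10). Hrc, a calcium-binding protein of the sarcoplasmic reticulum, went from 239 and 259 to 116 and 98.8 in the Oct4-cKO line and from 203 and 181 to 679.7 and 774 in the Sox2-cKO line, a difference of -3.12 ± 0.24 (SE, adjusted p = 6.8e-08). Npnt, the integrin ligand nephronectin, had a difference of -2.72 ± 0.22 (SE, adjusted p = 1.1e-07) with responses of -1.72 and 1.00, and Calr4, of the calreticulin family, one of -2.57 ± 0.47 (SE, adjusted p = 0.00061) with responses of -1.15 and 1.41.

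On the positive side stood genes that fell further without Sox2 and genes that rose further without Oct4. Nrp2, a co-receptor for semaphorins and VEGF, had counts of 124 and 134 without Dox and 55.3 and 41.1 with Dox in the Oct4-cKO line, and 353 and 388 without and 12.4 and 13.1 with Dox in the Sox2-cKO line. It was lower in treated than in untreated libraries of each line and lowest in the treated Sox2-cKO cells, with a difference of 3.34 ± 0.34 (SE, adjusted p = 1.4e-06). Cd24a, a glycosylated surface protein, fell from 382 and 336 to 130.1 and 145 after Oct4 loss and from 606 and 701 to 37.1 and 46.6 after Sox2 loss, a difference of 2.56 ± 0.14 (SE, adjusted p = 1.5e-09). Pmel, a melanosome protein, had responses of -1.07 and -3.67 and a difference of 2.60 ± 0.31 (SE, adjusted p = 9.5e-06), although the untreated lines differed as well. Tcl1, a co-activator of the kinase Akt, had responses of -4.12 and -6.33, a difference of 2.21 ± 0.24. S100a13, a calcium-binding protein, went from 641 and 655 to 1238 and 1236 without Oct4 and from 759 and 755 to 244 and 262 without Sox2, a difference of 2.51 ± 0.26. Ephx2, soluble epoxide hydrolase, had responses of 0.09 and -2.33, a difference of 2.42 ± 0.22.

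Among those that rose further without Oct4, Ddx58 (chromosome 4, 40150806 to 40186861), which encodes the RNA sensor RIG-I, had counts of 28.4 and 42.2 without Dox and 628 and 662 with Dox in the Oct4-cKO line, and 96.1 and 123 without and 244 and 221 with Dox in the Sox2-cKO line. Its treated Oct4-cKO libraries were the highest and the difference was 3.09 ± 0.22 (SE, adjusted p = 3.1e-08), with the untreated levels also apart. Cdc42ep1, an effector of the GTPase CDC42, rose from 14.2 and 18.9 to 816 and 765 after Oct4 loss and from 37.8 and 38.9 to 317 and 319 after Sox2 loss, a difference of 2.49 ± 0.42 (SE, adjusted p = 0.00028). Chga, the secretory granule protein chromogranin A, had responses of 2.57 and 0.16 and a difference of 2.40 ± 0.18. E2f8, an atypical E2F repressor of the cell cycle, had responses of 2.17 and 0.10 and a difference of 2.07 ± 0.13. Of the lines, only the Oct4-cKO line was called for Dox in Chga and E2f8. Tmsb4x, the actin-binding thymosin beta 4, went from 569.7 and 568 to 1516 and 1424 in the Oct4-cKO line and from 1409.8 and 1418 to 1109 and 1111 in the Sox2-cKO line, a difference of 1.72 ± 0.06 (SE, adjusted p = 5e-12).

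**Figure D3:**
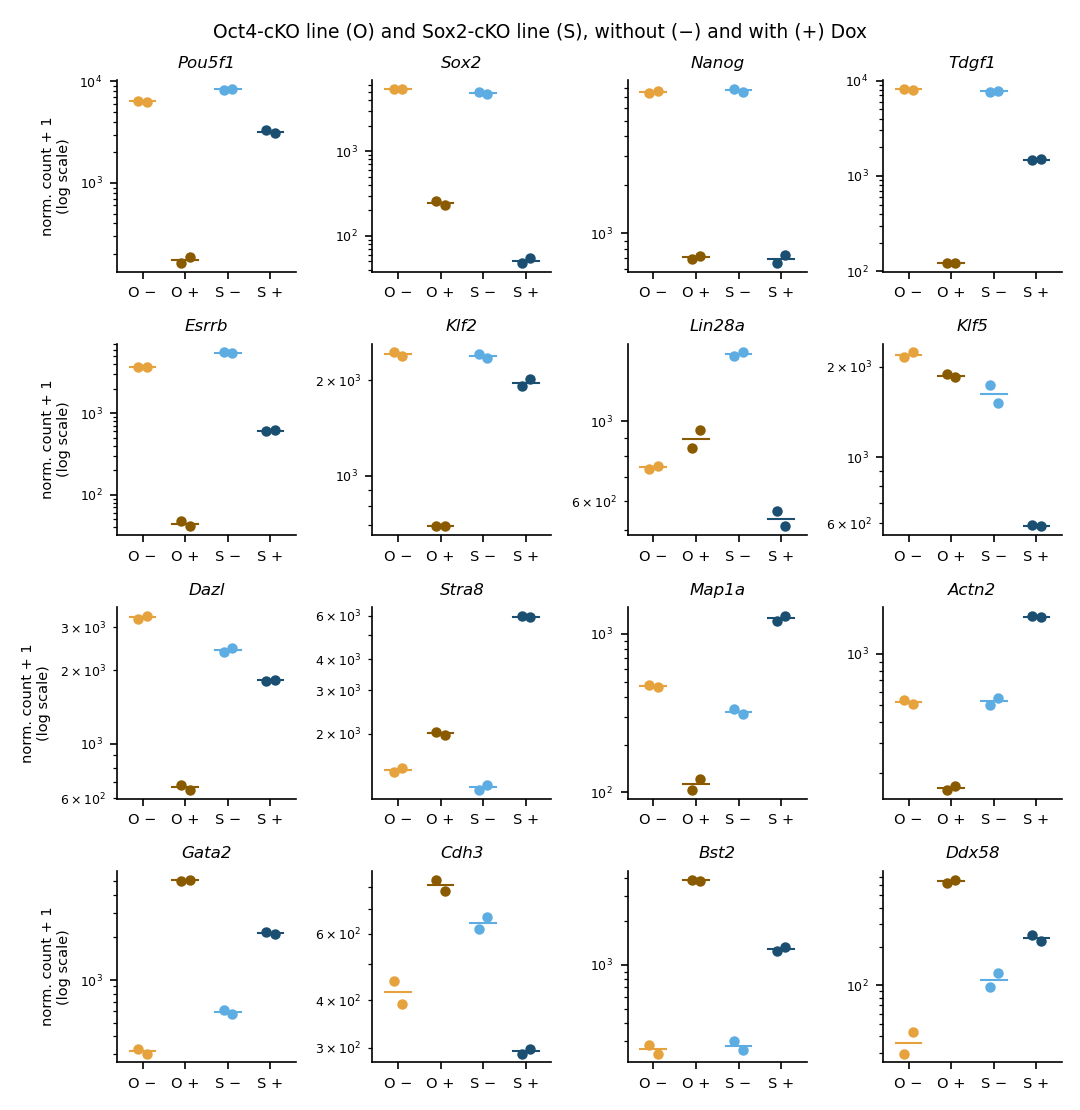
Normalized counts plus 1 (log scale, separate for each panel) of 16 genes are shown for the Oct4-cKO line (O) and the Sox2-cKO line (S) without (−) and with (+) Dox. Points are the 2 libraries of a group and bars their geometric mean. Nanog fell to like values in both lines, Klf2 and Dazl were lowest after Oct4 loss, Lin28a and Klf5 after Sox2 loss, and Gata2, Bst2 and Ddx58 highest after Oct4 loss.

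The naive pluripotency list, 42 tested genes of the ground-state network and its markers, split in both directions. Of them 17 were called, 6 positive and 11 negative, a share of 40.5%. The share was 6.81% over all genes tested and 9.32% over those averaging 10 or more counts. The median difference was -0.01 against 0 over all genes tested. After Oct4 loss 30 members fell and after Sox2 loss 32, where 10.8% and 7.32% of all genes tested fell. Beside Tdgf1 and Esrrb, the negative side held Fgf4, the growth factor that primes differentiation, at -2.38 ± 0.10 (SE, adjusted p = 7.1e-11), the adhesion molecule Pecam1 at -2.23 ± 0.17, the T-box factor Tbx3 at -2.12 ± 0.06, and the TGF-beta family ligand Gdf3 at -2.01 ± 0.20. Klf2, a Krueppel-like factor, had counts of 2445 and 2375 without Dox and 691 and 690.4 with Dox in the Oct4-cKO line, and 2419 and 2354 without and 1909.7 and 2007 with Dox in the Sox2-cKO line. The treated Oct4-cKO libraries lay below all others, a difference of -1.52 ± 0.06 (SE, adjusted p = 6.1e-11). Tet1, a 5-methylcytosine oxidase, went from 3579 and 3563 to 432 and 506 after Oct4 loss and from 4035 and 4081 to 1969 and 1926 after Sox2 loss, a difference of -1.87 ± 0.07 (SE, adjusted p = 2.5e-11). Zfp57, a zinc finger protein that protects imprints, was at -1.40 ± 0.07, and the transcriptional regulator Aire at -1.35 ± 0.25.

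The positive side included factors whose values held without Oct4. Lin28a (chromosome 4, 133559245 to 133574756), the RNA-binding protein that blocks let-7 maturation, had counts of 738 and 749 without Dox and 839.5 and 946 with Dox in the Oct4-cKO line, and 1514 and 1553 without and 563 and 509 with Dox in the Sox2-cKO line. The treated Oct4-cKO libraries were no lower than the untreated ones, whose level was below that of the untreated Sox2-cKO cells, and the difference was 1.78 ± 0.08 (SE, adjusted p = 7.4e-11). Klf5 had counts of 2151 and 2238 before and 1898 and 1845 after Dox when Oct4 was lost, against 1744 and 1516 before and 591 and 585 after when Sox2 was lost. The treated Sox2-cKO libraries were the lowest for Klf5, and the difference was 1.24 ± 0.08 (SE, adjusted p = 7.2e-09). Mycn, the N-Myc oncoprotein gene, was at 1.36 ± 0.08 and Fbxo15, an F-box protein and reporter of pluripotency, at 1.22 ± 0.06. Tcl1, above, was a positive member as well, though it fell in both lines. Nr0b1, which encodes the nuclear receptor Dax1, fell from 123 and 106 to 1.15 and 0 and from 291 and 281 to 0 and 0, so that its difference of 1.87 ± 0.41 rests on libraries near 0 reads and was not called by edgeR or DESeq2. Klf4 and Prdm14 were not called, at 0.23 ± 0.08 and 0.15 ± 0.16. With the length and GC trend removed the list held 7 positive and 11 negative calls.

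Nodal and Activin signalling, which keeps later pluripotent cells in self-renewal and patterns the embryo, had 11 of 23 tested members called (47.8%), 2 positive and 9 negative, and a median of -0.72. The share called was 6.81% over all genes tested and 9.32% over those averaging 10 or more counts. Among ligands and co-receptors, Nodal itself had counts of 167 and 164 without Dox and 32.2 and 28.9 with Dox in the Oct4-cKO line, and 252 and 203 without and 82.5 and 90.8 with Dox in the Sox2-cKO line. It fell in both lines and further after Oct4 loss, with a difference of -1.03 ± 0.14 (SE, adjusted p = 3.1e-05) that lay close to the threshold. Its co-receptor Tdgf1 and the related ligand Gdf3 are given above. Foxh1, the DNA-binding partner of the Smad proteins, went from 403 and 370.1 to 11.5 and 13.3 after Oct4 loss and from 441 and 428 to 53.6 and 63.0 after Sox2 loss, a difference of -1.97 ± 0.16 (SE, adjusted p = 9.6e-08). Of the target genes and feedback inhibitors, Skil was at -1.37 ± 0.07 and Pmepa1 at -1.29 ± 0.16. The receptor Acvr2b (-1.20 ± 0.13), the extracellular antagonist Fstl3 (-1.13 ± 0.20) and the signal transducer Smad3 (-1.05 ± 0.13) had responses of -0.49, -0.06 and -0.25 to Oct4 loss and of 0.70, 1.07 and 0.80 to Sox2 loss. Smad3 lost its call with the length and GC trend removed (-0.75). Both positive calls were the close paralogs Lefty1 and Lefty2, antagonists of Nodal, which may share reads, were lower in untreated Oct4-cKO cells and were near 0 after Dox. Lefty1 went from 15.97 and 26.9 to 1.15 and 3.33 and from 81.0 and 63.8 to 0 and 0.818, and Lefty2, not called by edgeR or DESeq2, from 39.0 and 20.7 to 0 and 0 and from 165 and 182 to 0 and 0.818. With the trend removed, 2 positive and 8 negative calls were left.

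In the BMP pathway, 2 of 32 tested members were called positive and 7 negative (28.1% called, against 6.81% of all genes tested, median -0.38). There were 6 negative calls by edgeR, by DESeq2 or with the length and GC trend removed. The ligand Bmp8b had counts of 22.2 and 36.8 without Dox and 39.2 and 57.7 with Dox in the Oct4-cKO line, and 42.1 and 33.9 without and 299 and 258 with Dox in the Sox2-cKO line. It was several times higher in treated Sox2-cKO cells than elsewhere, a difference of -2.13 ± 0.37 (SE, adjusted p = 0.00032). The type II receptor Bmpr2 went from 285 and 282 to 188 and 251 and from 224 and 230.4 to 563 and 569, a difference of -1.70 ± 0.18 (SE, adjusted p = 2.9e-06), and the ligand Bmp7 was at -1.20 ± 0.14. Bmp1, a metalloproteinase of the list, was at -1.43 ± 0.37, and among the targets and inhibitors Id1 was at -1.15 ± 0.22 and Smad6 at -1.03 ± 0.27, the last with -0.72 and no call once the trend was removed. Msx2, a homeobox target, and Id4 were the positive ones, at 3.01 ± 0.44 and 1.49 ± 0.42.

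The germline and meiosis list had the lowest median of the lists described here, -0.83 over 36 tested genes. It had 1 positive and 10 negative calls (30.6% called, against 6.81% of all genes tested). Some members fell with Oct4 and held without Sox2. Dazl (chromosome 17, 50418719 to 50432924), an RNA-binding protein of germ cells, had counts of 3237 and 3331 without Dox and 681 and 646 with Dox in the Oct4-cKO line, and 2367 and 2463 without and 1806 and 1828 with Dox in the Sox2-cKO line. Its treated Oct4-cKO libraries lay below all others, and the difference was -1.90 ± 0.15 (SE, adjusted p = 1.1e-07). Ddx4, the Vasa helicase, was at -1.42 ± 0.24, the piRNA protein Piwil2 at -1.98 ± 0.20, the recombinase Dmc1 at -1.14 ± 0.21 and the histone reader Zcwpw1 at -1.09 ± 0.12. Others had their highest values in treated Sox2-cKO cells. Stra8 (chromosome 6, 34870163 to 34889342), the gatekeeper of meiotic entry, had counts of 1400.3 and 1462 without Dox and 2036 and 1985 with Dox in the Oct4-cKO line, and 1185 and 1244 without and 5976 and 5894 with Dox in the Sox2-cKO line. It rose in the Sox2-cKO line, while its response of 0.49 in the Oct4-cKO line was not called, a difference of -1.80 ± 0.13 (SE, adjusted p = 2.3e-08). Taf7l, a TFIID subunit of testis, was at -1.76 ± 0.19 and Tex11, of meiotic recombination, at -1.13 ± 0.21. Hormad2, of the meiotic chromosome axis, was at -1.35 ± 0.22, and Tdrd9, with a wide spread between its libraries, at -2.21 ± 0.74. Prdm1, the repressor Blimp1 that founds the germ line, was the positive call, at 1.80 ± 0.36. With the length and GC trend removed 1 positive and 11 negative members were called, at a median of -0.77.

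Interferon-stimulated genes lay on the positive side. Of 38 tested, 9 were called (23.7%, against 6.81% of all genes tested), each of them positive, with a median of 0.66. With the length and GC trend removed 8 were called, also positive. After Oct4 loss 26 members rose and 4 fell, and after Sox2 loss 19 rose and 4 fell, where 8.53% and 7.79% of all genes tested rose. Beside the sensor Ddx58, Bst2, which encodes the membrane protein tetherin, had counts of 279.5 and 243 without Dox and 3874 and 3808 with Dox in the Oct4-cKO line, and 296 and 259 without and 1237 and 1321 with Dox in the Sox2-cKO line. It rose in both lines and further after Oct4 loss, a difference of 1.67 ± 0.11 (SE, adjusted p = 1.6e-08). Xaf1, a pro-apoptotic interferon target, rose from 154 and 142 to 541 and 562 in the Oct4-cKO line and went from 148 and 154 to 154 and 150.4 in the other, a difference of 1.88 ± 0.22 (SE, adjusted p = 5.1e-06). The paralogs Oas1a (1.25 ± 0.29) and Oas1g (1.12 ± 0.33), whose reads may be shared, encode sensors of double-stranded RNA. Ifitm3, a membrane restriction factor, fell in both lines and less after Oct4 loss, at 1.13 ± 0.13, or 0.92 and not called with the length and GC trend removed. Usp18 and Ifit3 started at or near 0 reads: Usp18 went from 0.887 and 2.69 to 196 and 172 after Oct4 loss and from 0 and 2.00 to 14.8 and 12.3 after Sox2 loss. Ifit3 went from 0 and 0.898 to 10.4 and 26.6 and from 0 and 0 to 0 and 2.45, and neither was called by edgeR. DESeq2 did not call Usp18 and gave no adjusted p for Ifit3.

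Of 48 tested genes of the trophoblast, the lineage that Oct4 holds back, 26 rose and 2 fell after Oct4 loss and 28 rose and 4 fell after Sox2 loss, where 8.53% and 7.79% of all genes tested rose. The difference was called for 12 (25.0%, against 6.81% of all genes tested), 8 positive and 4 negative, with a median of 0.22. With the trend removed it was called for 10 positive and 3 negative. Gata2 (chromosome 6, 88143885 to 88157024), a zinc finger factor of trophoblast, had counts of 323 and 300.0 without Dox and 5039 and 5136 with Dox in the Oct4-cKO line, and 610.4 and 572 without and 2171 and 2119 with Dox in the Sox2-cKO line. All treated libraries lay above the untreated ones, and those of the Oct4-cKO line were the highest, with a difference of 2.17 ± 0.21 (SE, adjusted p = 6.9e-07). Dlx3, a homeobox factor of the placenta, went from 85.2 and 82.6 to 1631 and 1585 after Oct4 loss and from 175 and 156 to 1039 and 1060.5 after Sox2 loss, a difference of 1.58 ± 0.17 (SE, adjusted p = 2.1e-06), and Tfap2a, an AP-2 factor, went from 79.0 and 69.2 to 924 and 1089 and from 73.5 and 77.8 to 355 and 368 and was also called positive. Cdh3, P-cadherin, had counts of 449.9 and 391 before and 835 and 778 after Dox when Oct4 was lost, against 616 and 662 before and 288 and 297 after when Sox2 was lost. Treated libraries were above the untreated ones in the Oct4-cKO line and below them in the Sox2-cKO line, a difference of 2.07 ± 0.09 (SE, adjusted p = 1.2e-10). Msx2 (3.01 ± 0.44), the ligand Wnt6 (1.60 ± 0.54), and Ada, adenosine deaminase (1.42 ± 0.16), were also positive, though Wnt6 lost its call on leaving out any of 7 libraries.

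Other defining trophoblast genes were not called. Cdx2 was at -0.48 ± 0.78, Elf5 at 0.93 ± 0.94, Gata3 at 0.39 ± 0.44 and the placental Plac1 at 0.18 ± 0.31, and the SEs of Cdx2 and Elf5 leave room for differences beyond 1. On the negative side Krt20 went from 12.4 and 13.5 to 1.15 and 1.11 and from 3.24 and 6.98 to 12.4 and 13.9, and Tead4, a TEAD factor of the trophectoderm, just passed the threshold and was not called under TMM scaling or with the length and GC trend removed (-0.79). Bmp8b, above, and Igfbp3 (-1.23 ± 0.25) were the other negative members. Among epithelial and tight junction genes, 4 of 42 tested members were called, each positive, with a median of 0.40. Their share of 9.52% was near that of all genes averaging 10 or more counts (9.32%), and with the length and GC trend removed 7 were called positive. The claudins Cldn4 and Cldn6 were at 1.36 ± 0.08 and 1.25 ± 0.08, and the protease Prss8 at 1.02 ± 0.24, which lost its call on leaving out any of 3 libraries.

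**Figure D4:**
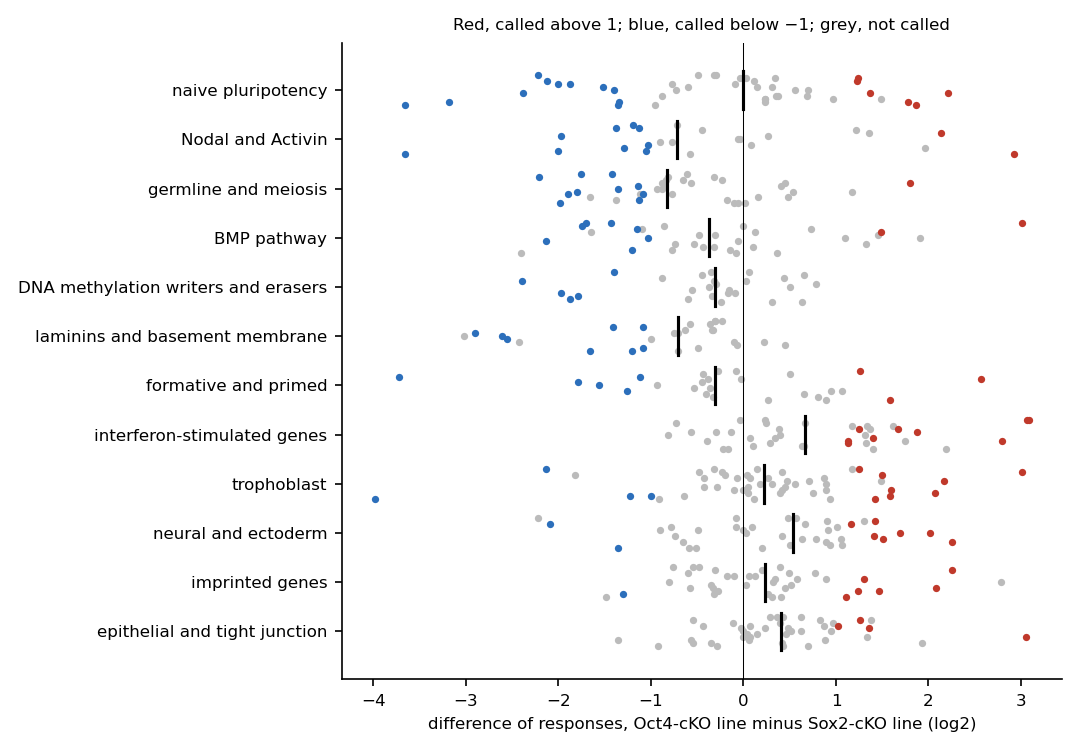
The difference of responses (x axis, log2) is shown for the tested members of 12 gene lists (y axis), each point a gene and each black bar the median of a list. Calls on the negative side (blue) prevail in Nodal and Activin, germline and meiosis and laminins, positive ones (red) in the interferon, neural and imprinted lists, and naive pluripotency has both.

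Neural and ectodermal genes leaned to the positive side, 7 positive against 2 negative among 38 tested (median 0.53), and 9 against 2 with the trend removed. The share called in the main test was 23.7%, against 6.81% of all genes tested. Several positive members fell without Sox2. Sox21, of the same gene family, went from 253 and 268 to 93.3 and 92.1 after Oct4 loss and from 579 and 582 to 62.7 and 95.7 after Sox2 loss, a difference of 1.41 ± 0.22 (SE, adjusted p = 0.00014), with untreated levels already apart. Tubb3, a neuronal tubulin, went from 218 and 199 to 56.4 and 77.7 and from 367 and 306 to 49.5 and 27.8, and the paired-box factor Pax6 was at 1.69 ± 0.50, both lowest in the treated Sox2-cKO cells. Dlk1, a non-canonical Notch ligand, was at 2.26 ± 0.55, and the neuronal RNA-binding protein Elavl4 at 2.02 ± 0.55. Elavl3, an RNA-binding protein of neurons, had counts of 173 and 192 before and 403 and 398 after Dox when Oct4 was lost, against 129.6 and 132 before and 108 and 105 after when Sox2 was lost. In contrast to the others Elavl3 rose in the Oct4-cKO line, and its difference was 1.43 ± 0.16 (SE, adjusted p = 3.1e-06). The neural progenitor filament Nes was negative at -2.09 ± 0.12 (SE, adjusted p = 2.1e-09), with responses of -2.08 and 0.02, and so was Stmn2 at -1.36 ± 0.11.

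Genes of the formative and primed states were mixed, with 3 positive and 5 negative calls of 26 tested (median -0.30). The share called was 30.8%, against 6.81% of all genes tested. With the length and GC trend removed there were 4 positive and 3 negative calls, at a median of -0.12. Sox3, the closest relative of Sox2, had counts of 39.0 and 29.6 without Dox and 1.15 and 0 with Dox in the Oct4-cKO line, and 46.5 and 34.9 without and 28.9 and 16.4 with Dox in the Sox2-cKO line. It was at or near 0 reads after Oct4 loss and still present after Sox2 loss, so the difference of -3.72 ± 0.58 depends on the added count of 1. Another family member, Sox9, went from 56.8 and 58.4 to 52.97 and 45.5 and from 33.5 and 30.9 to 129 and 132, a difference of -2.21 ± 0.48. Dnmt3a, a de novo DNA methyltransferase, had counts of 1246 and 1299 before and 742 and 796 after Dox when Oct4 was lost, against 1235 and 1175 before and 2493 and 2553 after when Sox2 was lost. Its response to Oct4 loss, -0.73, was not called and that to Sox2 loss was 1.07, a difference of -1.79 ± 0.06 (SE, adjusted p = 5.4e-12), which was -0.99 and not called with the length and GC trend removed. Epha2 was at -1.56 ± 0.23 and Etv5, an ERK target, at -1.11 ± 0.06 (-0.98 and not called with the trend removed), while carbonic anhydrase Car2 was positive at 1.58 ± 0.11, with counts from 857 and 865 to 4278 and 4351 and from 964 and 951 to 1576 and 1633. Among POU genes other than Oct4, Pou2f2 and Pou6f1 were at -2.38 ± 0.48 and -2.28 ± 0.20, each lower in treated Oct4-cKO than in treated Sox2-cKO cells.

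The list of DNA methylation writers, erasers and linked factors had 5 of 26 tested members called, each negative, and 4 with the trend removed. Of all genes tested 4.69% were called negative, and of those averaging 10 or more counts 6.74%. The members called were Tet1, Dnmt3a and Zfp57 above, the cytidine deaminase Apobec1 at -2.39 ± 0.26 and its relative Apobec2 at -1.98 ± 0.29. Among these the methyltransferase Dnmt3a, not called with the trend removed, was the only writer, and the oxidase Tet1 the established eraser. Of 38 imprinted genes tested, 6 were positive and 1 negative (18.4% called, against 6.81% of all genes tested, median 0.24). Phlda2, a maternally expressed growth restrictor of the placenta, had counts of 251 and 260.5 without Dox and 9544 and 9704 with Dox in the Oct4-cKO line, and 211 and 229 without and 3417 and 3272 with Dox in the Sox2-cKO line. Its rise was larger after Oct4 loss, a difference of 1.31 ± 0.10 (SE, adjusted p = 3.9e-08). Beside Dlk1, Dio3 was at 1.46 ± 0.39, Plagl1 at 1.24 ± 0.14 and Usp29 at 2.08 ± 0.39, the last 2 with lower untreated levels in the Oct4-cKO line. Mest was the negative call at -1.30 ± 0.18. The abundant H19 and Peg10 were not called, at 0.12 ± 0.14 and -0.57 ± 0.04.

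In glycolysis 4 of 29 tested members were called (13.8%), each negative, with a median of -0.35. All 29 averaged 10 or more counts, and of all such genes 9.32% were called and 6.74% were called negative. With the length and GC trend removed 3 members were called, each negative. Pfkp, the platelet form of phosphofructokinase, had counts of 6252 and 6266 without Dox and 833 and 793 with Dox in the Oct4-cKO line, and 6932 and 6836 without and 2729 and 2644 with Dox in the Sox2-cKO line. Its fall was the larger after Oct4 loss, a difference of -1.59 ± 0.05 (SE, adjusted p = 6.4e-13). Eno3, the muscle enolase, rose from 180.4 and 185 to 1029 and 1054 in the Sox2-cKO line and went from 59.5 and 78.2 to 86.4 and 102 in the other, a difference of -2.05 ± 0.22 (SE, adjusted p = 3e-06). Hk1 was at -1.05 ± 0.06, or -0.74 and not called without the length and GC trend.

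For the matrix genes the trend with transcript length weighed most. Laminins and other basement membrane genes have a long median transcript of 6338 bases. Of 27 tested, 8 were called (29.6%, against 6.81% of all genes tested), each negative, with a median of -0.70. With the trend removed 3 were called and the median was -0.27. Lama5, the laminin alpha-5 chain, had counts of 7265 and 7296 without Dox and 1516 and 1518 with Dox in the Oct4-cKO line, and 5684 and 5501 without and 7066 and 7222 with Dox in the Sox2-cKO line. Its difference of -2.62 ± 0.05 (SE, adjusted p = 1.2e-14) was -1.15 and still called after the correction, as were the laminin receptor Itga6 (-1.66, then -1.56) and Lamb3 (-2.56, then -2.24). The calls of Lamc1 (-1.20, then -0.58), Lamb2 (-1.09, then -0.49) and Dag1 (-1.08, then -0.81) were lost. Hspg2, perlecan, with a very long transcript, turned from -1.41 to 0.41. In primitive endoderm genes the calls went from 1 positive and 6 negative to 1 and 3 among 40 tested. The share called before the correction was 17.5%, against 6.81% of all genes tested. Serpinh1, a collagen chaperone, and Sparc, a matrix glycoprotein, kept their calls, at -1.53 and -1.19 before the correction.

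Markers of fibroblasts, the cells used as feeders, were uneven in level and moved with the contrast. Of 23 tested, 1 was called positive (Postn, 2.42) and 4 negative (Timp3 at -2.24, Bgn at -2.15, Fbn1 at -2.06 and Pdgfrb at -1.39). Fbn1 and Pdgfrb lost the call with the trend removed. The share called was 21.7%, against 6.81% of all genes tested. The summed level of the list was 1795 to 1908 normalized counts without and 1192 to 1223 with Dox in the Oct4-cKO line, and 1185 to 1241 without and 2220 to 2369 with Dox in the Sox2-cKO line. The members Twist2, Prrx1, Meox2, Tcf21, Fap and S100a4 had at most 2.22 normalized counts in any of the 8 libraries. Other members were higher, with means over these libraries of 605 for Timp3, 279 for Col5a1, 213 for Pdgfrb, 129 for Bgn and 105 for Mmp2. Lum did not pass the read filter, and Dcn was not analysed here. The part of such cells in the matrix results was not tested.

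At the other end, some groups had few or no calls. None of 78 cytosolic ribosomal protein genes was called by limma, edgeR or DESeq2, yet 72 were higher at an unadjusted p under 0.05 with a median of 0.27 (0.11 with the length and GC trend removed). None of 24 cholesterol synthesis genes was called by these tools, with 1 positive and 10 negative at an unadjusted p under 0.05. In the p53 list 1 of 30 was called and in the list of ATF4 targets 1 of 35. The share called was 6.81% over all genes tested and 9.32% over those averaging 10 or more counts. The cholesterol, p53 and ATF4 lists are too short to show whether so few calls differ from these shares.

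Promoter windows were searched for the binding letters of the factors. RefSeq windows (GRCm38.p6) of 250 bases before to 50 bases after the start were matched by symbol to 14933 of the genes tested. The octamer of POU factors, ATGCAAAT on either strand, stood in 2.80% of 393 windows of genes with a positive difference (11 windows), in 1.97% of 1015 windows of genes with a negative one (20 windows) and in 1.46% of all 18689 windows. The Sox core CATTGT, on either strand, stood in 10.4%, 7.98% and 8.66%. Both within 4 bases of each other were found in 4 of the 18689 windows, of which 0 belonged to called genes. A match is a description of these letters and not a bound site. The windows with an octamer, in capitals, of the 2 called genes with the largest difference in each direction and a mean of at least 100 are printed here to show where it lies:
Prx, chr7:27499074-27499373, + strand: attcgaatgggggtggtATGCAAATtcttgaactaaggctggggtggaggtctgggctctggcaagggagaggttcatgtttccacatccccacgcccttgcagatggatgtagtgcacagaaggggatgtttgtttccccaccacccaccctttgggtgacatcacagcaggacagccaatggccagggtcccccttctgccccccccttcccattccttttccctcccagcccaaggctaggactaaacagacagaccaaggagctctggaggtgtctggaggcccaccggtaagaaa
Itpr3, chr17:27057054-27057353, + strand: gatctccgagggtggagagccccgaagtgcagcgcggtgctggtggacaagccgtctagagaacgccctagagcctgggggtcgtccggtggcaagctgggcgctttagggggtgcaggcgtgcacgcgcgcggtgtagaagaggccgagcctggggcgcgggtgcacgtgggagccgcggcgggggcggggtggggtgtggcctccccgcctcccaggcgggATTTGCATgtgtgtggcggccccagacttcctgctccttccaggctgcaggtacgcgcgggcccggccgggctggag
Liph, chr16:21995493-21995792, - strand: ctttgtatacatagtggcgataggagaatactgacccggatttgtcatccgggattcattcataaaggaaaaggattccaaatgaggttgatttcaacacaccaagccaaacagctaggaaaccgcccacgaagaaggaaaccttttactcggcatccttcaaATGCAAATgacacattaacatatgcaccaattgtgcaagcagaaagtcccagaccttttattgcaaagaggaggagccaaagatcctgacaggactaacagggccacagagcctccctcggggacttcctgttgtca
Tmsb4x, chrX:167209169-167209468, - strand: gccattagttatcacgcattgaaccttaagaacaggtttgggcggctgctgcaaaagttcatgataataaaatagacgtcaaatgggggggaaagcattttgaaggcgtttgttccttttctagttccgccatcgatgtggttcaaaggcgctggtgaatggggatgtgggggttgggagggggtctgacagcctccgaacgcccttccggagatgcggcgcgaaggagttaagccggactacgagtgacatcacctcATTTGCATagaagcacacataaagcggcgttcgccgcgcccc
Prx, the myelin protein periaxin, and Itpr3, an inositol trisphosphate receptor, had differences of -2.01 ± 0.16 and -1.93 ± 0.06, and Itpr3 was not called with the length and GC trend removed (-0.90). Liph, a lipase, had a difference of 1.96 ± 0.26, with counts from 201 and 197 to 145 and 109.9 after Oct4 loss and from 403 and 414 to 71.8 and 60.5 after Sox2 loss.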

How the data were processed

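Poly(A) RNA of 24 libraries was sequenced, of which the 18 of the tet-off table (9 groups of 2) entered the fit and 8 the contrast. What the authors deposited is a signal, gene counts after scaling: per the study's methods and the submitters' processing notes, the authors trimmed reads with Trim Galore 0.6.4, aligned them to NCBIM37 with STAR 2.7.9a, counted them with HTSeq 0.11.2 and divided each library by its DESeq2 size factor. The strand setting is not given in the sources used here. Dividing by the step of 1 read gave whole numbers for 100% of values in each library, within a tolerance of 0.1 reads. For 2 of the 18 libraries, 1 of them an untreated Sox2-cKO L-EPSC library, 1 read is worth so near 1 that this does not test the recovery, and their reads were taken the same way. The table of J1 cells was not used.

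Genes with at least 2 reads over the 18 libraries were tested, 24007 of 25476, with limma 3.58.1 (R 4.3.3, trend) on log2(normalized count + 1) and Benjamini-Hochberg adjustment over all of them. A fold change on this scale understates changes of low genes. With 2 libraries against 2 an exact permutation test cannot go below 0.333, so single genes were tested only in the shared fit. As alternatives the recovered reads were tested with the quasi-likelihood test of edgeR 4.0.16 and with DESeq2 1.42.0, beside other scalings, filters, thresholds and pseudocounts, a replicate block and leaving out each library. Removing the trend with transcript length and GC content (splines, protein-coding genes) was chosen after seeing the data.

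Members and the 41 gene lists were chosen with earlier results of these data known. Named are the core factors, the 12 largest differences of each direction at a mean of at least 100, up to 8 opposite responses of each direction, list members, called ones first, and the genes of the printed promoters. Some genes that this rule takes are not reported here. Gene positions are of NCBIM37. The script was tested on simulated data. The depth of 10807631 to 14798984 reads limits the low genes: a group with at most 3 reads per library was treated as at the floor.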

Additional observations from a re-analysis of the deposited data

Results flagged for a closer look

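The interaction term tests the difference between the lines itself, and it singled out 1635 genes, 36 of them called in opposite directions in the lines. Large negative values among genes with a mean of at least 100, in log2, were -4.52 for Adgrb2, -4.19 for A2m, -4.10 for Khdc3, -4.01 for Map1a, -3.80 for Pou5f1, -3.66 for Tdgf1, -3.32 for Actn2, -3.28 for Bsn, -3.19 for Esrrb, -3.18 for Fam81a and -3.12 for Hrc, and among the opposite responses -2.72 for Npnt and -2.57 for Calr4. The largest positive values were 3.34 for Nrp2, 3.09 for Ddx58, 2.60 for Pmel, 2.56 for Cd24a, 2.51 for S100a13, 2.49 for Cdc42ep1, 2.42 for Ephx2, 2.40 for Chga, 2.21 for Tcl1, 2.17 for Gata2, 2.09 for Sox2 and 2.07 for E2f8.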

How the results depend on the processing

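The count of 1635 genes was 1588 with edgeR, 1484 with DESeq2 and 1299 with the length and GC trend removed, 1541 to 1781 when single libraries were left out (480 to 633 positive, 1006 to 1148 negative), and within 1.5 times the main value in all alternatives but the threshold. The replicate number did not pair the libraries (correlations of same-numbered deviations from -0.0232 to 0.0161), and the replicate block gave 1612. At a threshold of 0.6 the count was 3097 (1183 positive, 1914 negative), with 5568 Dox-responsive genes in the Sox2-cKO line, 1263, 653, 574, 108 and 499 genes called in the Oct4-cKO line alone, the Sox2-cKO line alone, the same way, opposite ways and neither, and 1792 and 4277 genes differing between untreated and between treated lines. A fit restricted to genes with a mean of at least 10 found 21 genes called in opposite ways, against 19 of the 1294 such genes called in the full fit. Pearson's r was 0.782 at a mean of at least 100, 0.769 with a pseudocount of 0.1, 0.799 with the trend removed and 0.766 to 0.772 with single libraries left out. The Nanog difference, which was not called, turned to -0.062 with the trend removed and lay between -0.0146 and 0.150 when single treated Sox2-cKO libraries were left out, that of Plac1, also not called, turned to -0.038, and that of Hspg2 to 0.41. Of 136 called genes named, 22 lost the call on leaving out at least 1 library (differences without it, Aldh1a2 1.23, Bgn -2.40 to -1.91, Bsn -3.25 to -2.71, Dmc1 -0.99, Hk1 -0.999, Id1 -0.87, Id4 0.98 to 1.40, Ifit3 1.90 to 2.79, Igfbp3 -0.99, Lamb2 -0.99, Myc 0.74 to 1.27, Nodal -0.96 to -0.87, Oas1g 0.91 to 1.10, Pax6 1.36 to 1.55, Prss8 0.87 to 0.98, Smad3 -0.996 to -0.95, Smad6 -0.92 to -0.89, Tdrd9 -2.49 to -1.55, Tead4 -0.96 to -0.87, Tex11 -0.93, Usp18 2.27 to 3.54, Wnt6 1.07 to 1.80). A fit of the 4 groups alone ended the calls of 15 of the 136. The removed trend ended the calls of 14 and also that of Hspg2, whose difference changed sign. A pseudocount of 0.1 ended the calls of 6, edgeR of 4 (Nr0b1, Lefty2, Usp18 and Ifit3) and DESeq2 of 3. The replicate block ended those of 2 (Usp18 and Wnt6) and TMM scaling of 1. Genes with few reads limit the precision, and with 2 libraries per group and unknown independence the SEs may be too small for separate cultures.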

Other observations

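Retinoic acid genes, which direct patterning and germ cell entry into meiosis, had 4 positive and 2 negative calls among 28 tested. Their share called was 21.4%, against 6.81% of all genes tested. The numbers were the same with the length and GC trend removed. The degrading enzyme Cyp26a1 had counts of 15.97 and 17.97 without Dox and 4.61 and 5.55 with Dox in the Oct4-cKO line, and 33.5 and 35.9 without and 0 and 0.818 with Dox in the Sox2-cKO line. It fell in both lines, and with 0 and 0.818 counts in treated Sox2-cKO cells its difference of 3.16 ± 0.72 (SE) depends on the added count of 1. The synthesizing enzyme Aldh1a2 was at 1.47 ± 0.43 and the homeobox factor Meis2 at 1.39 ± 0.29.

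ERK feedback and immediate-early genes had 4 positive and 3 negative calls among 32 tested (21.9% called, against 6.81% of all genes tested). Myc, the c-Myc gene, had counts of 29.3 and 56.6 without Dox and 1069.8 and 1098 with Dox in the Oct4-cKO line, and 34.6 and 35.9 without and 390.2 and 424 with Dox in the Sox2-cKO line. It rose in both lines and further after Oct4 loss, with a difference of 1.21 ± 0.37. The phosphatase Dusp1 was at 1.19 ± 0.09, and the ERK inhibitor Spred1 was at -1.40 ± 0.21. Myc lost the call on leaving out any of 7 libraries. Of 40 cell cycle genes 2 were called positive and 1 negative, a share of 7.50% and so near the 6.81% of all genes tested. The kinase Cdk6 went from 23.1 and 49.4 to 43.8 and 56.6 after Oct4 loss and from 134 and 133 to 25.6 and 27.0 after Sox2 loss, a difference of 2.84 ± 0.35. In fatty acid and lipid genes 1 positive and 4 negative calls of 32 (15.6% called, against 6.81% of all genes tested) became 0 and 2 with the trend removed. The desaturase Fads2 was at -1.62 ± 0.15 (-1.68 with the trend removed). The POU list held 0 positive and 3 negative calls of 12 by limma (25.0% called, against 6.81% of all genes tested), and 2 of each by edgeR and by DESeq2. Collagens held 0 positive and 3 negative of 44, or 2 of each with the trend removed. Their share of 6.82% called was that of all genes tested (6.81%).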
